A study of Saccharomyces cerevisiae with 11 samples.

Results

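The catalases, superoxide dismutases and peroxidases of baker's yeast were followed through a slow loss of growth without oxygen. The set holds 10 genes, of 5597 genes tested, and a probe set was taken as a member when its only gene symbol was CTT1, CTA1, SOD1, SOD2, GPX1, GPX2, HYR1, TSA1, TSA2 or PRX1. Each of the 10 symbols was carried by 1 probe set of the 6504 with a single gene, and all 10 passed the filter on low values. Their open reading frames are YJR104C (SOD1), YHR008C (SOD2), YGR088W (CTT1), YDR256C (CTA1), YKL026C (GPX1), YBR244W (GPX2), YIR037W (HYR1), YML028W (TSA1), YDR453C (TSA2) and YBL064C (PRX1).

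These enzymes remove reactive oxygen species. Superoxide dismutases turn superoxide into hydrogen peroxide, catalases split hydrogen peroxide with a haem group, and the thiol peroxidases (the glutathione peroxidase-like proteins and the peroxiredoxins) reduce hydrogen peroxide and lipid peroxides with electrons that come from NADPH through thioredoxin or glutathione. In aerobic yeast the main source of superoxide is the respiratory chain, and many of these genes are induced by the peroxide-responsive factor Yap1, by the general stress factors Msn2 and Msn4, or by haem.

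All cultures were of CEN.PK113-7D, a prototroph of mating type MATa with the alleles MAL2-8c and SUC2, and growth in synthetic medium without oxygen was limited by glucose. The starting point was 3 independent chemostats that grew at 0.025 per hour. The other 4 groups were independent duplicate retentostats, in which a filter keeps the cells in the vessel while medium flows through, after 2, 9, 16 and 22 days, when the growth rate was 0.0084, 0.0024, 0.0011 and 0.00063 per hour, with 2 arrays a day. The arrays of different days sample the same 2 cultures, whereas the model treats them as independent. In bulk samples, fewer cells with a transcript and less of it per cell cannot be told apart.

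The values are linear array intensities, and the number of arrays limits their precision. Markers of growth without oxygen (COX5B, AAC3, DAN1, TIR1 and HEM13) were at 64.4 or more on every array, but did not keep 1 level. DAN1 was at 1764 to 1985 on day 22 against 6345 to 7185 in the chemostats, HEM13 at 498 to 515 against 877 to 1156, and COX5B at 318 to 370.4 against 141 to 218. AAC3 was at 67.8 to 80.6 on day 2 against 154 to 180.0 in the chemostats. The MATa genes MFA1, MFA2, STE2 and BAR1 were at 603.8 or more on every array, while MF(ALPHA)1, STE3 and SAG1, which belong to the opposite mating type, were not at 0 and went up to 2049 for MF(ALPHA)1 on day 22. RNA integrity, read as the 5′ over 3′ signal of actin, gave 0.571 and 0.341 on day 22, 0.736 and 0.472 on day 16, and 0.766 to 0.796 for the chemostats. The same ratio for SPT15, the TATA-binding protein gene, gave 0.537 and 0.476 on day 22 and 0.466 to 0.562 for the chemostats. The lower quartile of all intensities gave 23.8 and 24.1 on day 22 and 15.3 to 17.5 for the chemostats. The part of these measures in the results below was not tested beyond the fits named there. The median log2 change of all genes against the chemostat was 0.14 on day 16 and 0.23 on day 22, and 0.19 for day 22 against day 2, so the changes in these 3 comparisons are given below relative to that median, and those on days 2 and 9 as fitted. The tests were made on the values without this shift, so an adjusted p printed beside such a value is that of the change as fitted.

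Over the 5 groups, 8 of the 10 genes changed (limma moderated F test, adjusted p under 0.05), against 39.4% of all genes. The exceptions were TSA1, with an adjusted p of 0.721, and GPX2, with an adjusted p of 0.148. Between the 4 retentostat days the F test called 3 of the 10, CTA1, GPX1 and TSA2, against 11.7% of all genes. That count was 0 without either day 2 array or day 22 replicate 2, and 1 without either day 16 array or day 22 replicate 1.

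**Figure D1:**
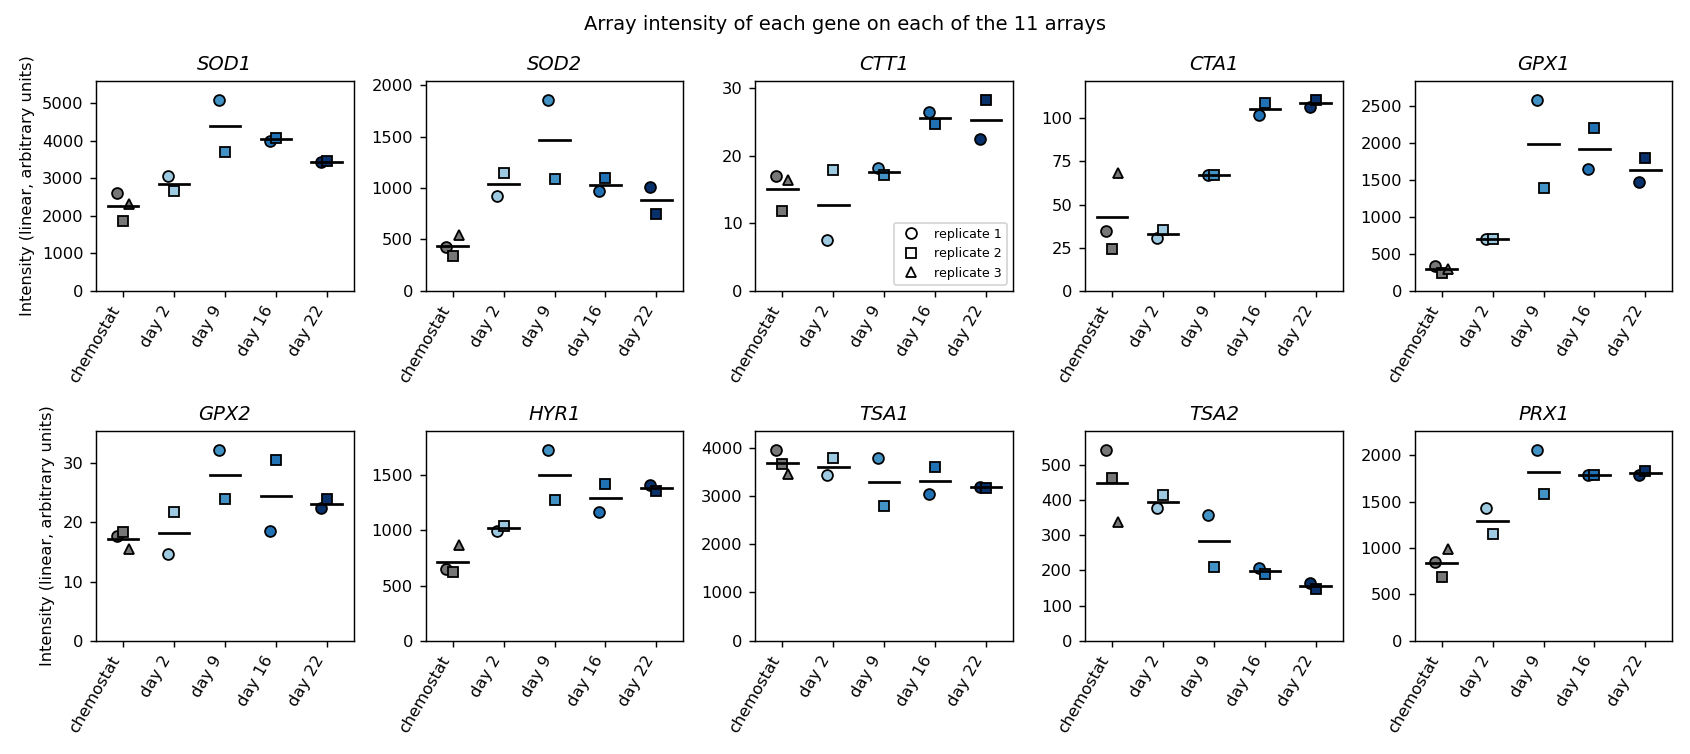
Intensity (linear scale, arbitrary units, each axis from 0) of the 10 genes on the 11 arrays, by group; points are arrays, their shape is the replicate number, and bars are group means. GPX1 is at 1385 or more on every array from day 9 on and at 331 or less in the chemostats, TSA2 is lowest on day 22, and TSA1 stays between 2783 and 3953.

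Both superoxide dismutases were higher in the retentostats, SOD2 past the threshold from day 2 on and SOD1 from day 9 on. SOD2 encodes the manganese enzyme of the mitochondrial matrix. Its intensity was 428, 336 and 543 in the chemostats, 919 and 1150 on day 2, 1854 and 1086 on day 9, 966 and 1094 on day 16, and 1010 and 752 on day 22. No retentostat array overlapped with the chemostats, and the highest array was day 9 replicate 1. SOD2 rose by 1.27 ± 0.27 (log2 change ± SE) on day 2 (limma, adjusted p = 0.0456) and by 1.73 ± 0.27 on day 9 (adjusted p = 0.000867). The day 2 call was lost after either other scaling and with only the arrays compared. On day 22 it averaged 881 ± 182 (SD, n = 2), against 436 ± 104 in the chemostats (SD, n = 3), a rise of 0.79 ± 0.27 relative to all genes (adjusted p = 0.0104). As fitted the day 22 change was 1.03. Scaling the arrays to 1 median ended the day 22 call (adjusted p = 0.0507), and so did leaving out day 22 replicate 1 (adjusted p = 0.102).

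SOD1 encodes the copper and zinc enzyme of the cytosol and the mitochondrial intermembrane space. Its intensity was 2619, 1858 and 2309 in the chemostats, 3054 and 2674 on day 2, 5089 and 3718 on day 9, 3992 and 4086 on day 16, and 3446 and 3457 on day 22. Each retentostat array lay above each chemostat array. Day 9 replicate 1 was the highest, and day 9 replicate 2 lay below both day 16 arrays. On day 2 the log2 difference was 0.35 ± 0.19, which did not pass (adjusted p = 0.391), and on day 9 SOD1 rose by 0.96 ± 0.19 (adjusted p = 0.00336). As fitted, the rise was 0.85 ± 0.19 on day 16 and 0.62 ± 0.19 on day 22 (adjusted p = 0.00549 and 0.0223). Relative to all genes the values were 0.71 and 0.39. The day 22 call ended with 1 median for all arrays (adjusted p = 0.173), without chemostat replicate 2 (0.0838) and without either day 22 array (0.085 and 0.102).

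The catalases gave weak signals, and both passed the threshold on days 16 and 22. CTA1 encodes catalase A, the catalase of peroxisomes and mitochondria. It was at 34.9, 24.4 and 68.5 in the chemostats, 30.5 and 35.3 on day 2, 66.9 and 67.0 on day 9, 102 and 109 on day 16, and 106.7 and 110.4 on day 22. Chemostat replicate 3 stood apart and overlapped with day 9, whereas the arrays of days 16 and 22 all lay above it. The log2 difference was −0.24 ± 0.33 on day 2 and 0.79 ± 0.33 on day 9, neither past the threshold (adjusted p = 0.777 and 0.080), but without chemostat replicate 3 it passed on day 9 (adjusted p = 0.00191). CTA1 rose by 1.31 ± 0.33 on day 16 and by 1.25 ± 0.33 on day 22 relative to all genes (adjusted p = 0.00593 and 0.00454). The fitted changes were 1.44 and 1.48. Each call ended without replicate 2 of its own day (adjusted p = 0.0585 on day 16 and 0.051 on day 22). Against day 2 it was higher on day 22 by 1.54 ± 0.36 (adjusted p = 0.00965), a call that ended without day 2 replicate 1 (adjusted p = 0.0743), day 22 replicate 1 (0.0583) or day 22 replicate 2 (0.0905).

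CTT1 encodes catalase T, the cytosolic enzyme that is a textbook target of the general stress factors. It stayed near the bottom of the scale, at 17.0, 11.8 and 16.4 in the chemostats, 7.5 and 17.8 on day 2, 18.1 and 17.1 on day 9, 26.5 and 24.7 on day 16, and 22.4 and 28.2 on day 22. The arrays of days 16 and 22 lay above the chemostats and day 2, and 2 of the 11 arrays were under the floor of 12 set for the test. Mouse control probe sets, which have no target in yeast, reached 10.4 at most. As fitted, CTT1 rose by 0.77 ± 0.22 on day 16 and by 0.75 ± 0.22 on day 22 (adjusted p = 0.0159 and 0.017). Relative to all genes the values were 0.64 and 0.52. Of the 463 genes with a mean intensity under 30, 24.4% were called higher on day 22, against 31.8% of all genes, and their median log2 change was 0.20, against 0.23 for all genes. The day 22 call ended after quantile normalization (fitted change 0.24, adjusted p = 0.457), with 1 median for all arrays (adjusted p = 0.084), with no floor (0.0879), and without chemostat replicate 2 (0.0647) or day 22 replicate 2 (0.15). The day 16 call ended without chemostat replicate 2 (0.0602) or either day 16 array (0.0855 and 0.0728).

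GPX1 had the largest change of the 10 genes against the chemostat on days 9, 16 and 22. On day 2 it was level with SOD2 (fitted changes of 1.275 and 1.265). GPX1 encodes a glutathione peroxidase-like protein that reduces lipid hydroperoxides, and in yeast it is induced by glucose starvation. Its intensity was 331, 244 and 300.2 in the chemostats, 697 and 704 on day 2, 2575 and 1385 on day 9, 1639 and 2198 on day 16, and 1468 and 1794 on day 22. Every day 2 array was above the chemostats, and every later array was above both. GPX1 rose by 1.28 ± 0.26 on day 2 (adjusted p = 0.0423) and by 2.71 ± 0.26 on day 9 (adjusted p = 0.000109). Relative to all genes it rose by 2.58 ± 0.26 on day 16 and 2.26 ± 0.26 on day 22 (adjusted p = 5.0e-05 and 6.59e-05). As fitted, GPX1 changed by 2.71 on day 16 and 2.49 on day 22. Its day 2 call was lost after either other scaling and with only the arrays compared. Among the 5597 genes its rise ranked 16 on day 9 and 64 on day 22.

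Between day 2 and day 9, 1 of the 10 genes passed, GPX1, against 5.79% of all genes. At an unadjusted p under 0.05 there were 6 of the 10. The share of all genes at that level was not counted, so this number gives no result about the set. GPX1 averaged 1980 ± 841 (SD, n = 2) on day 9, against 700.2 ± 4.74 on day 2, a rise of 1.43 ± 0.28 (adjusted p = 0.0192). From day 9 to day 16 and from day 16 to day 22 the 10 genes gave 0 calls, with 0.0179% and 0% of all genes called. At an unadjusted p under 0.05 the counts for these later steps were 1 and 0 of 10. They again lack a count over all genes and give no result about the set.

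HYR1, also called GPX3 or ORP1, encodes the peroxidase that senses hydrogen peroxide and oxidises Yap1. Its intensity was 652, 621 and 869 in the chemostats, 997 and 1045 on day 2, 1731 and 1273 on day 9, 1169 and 1421 on day 16, and 1409 and 1358 on day 22. All retentostat arrays lay above all chemostats, and the days from 9 on overlapped with each other. The log2 difference on day 2 was 0.53 ± 0.20 (adjusted p = 0.215). As fitted it was 0.87 on day 16 and 0.97 on day 22. HYR1 rose by 1.07 ± 0.20 on day 9 (adjusted p = 0.00219) and by 0.74 ± 0.20 on day 22 relative to all genes (adjusted p = 0.00293), and the day 22 call was kept with each array left out in turn. On day 16 the rise was 0.73 ± 0.20 (adjusted p = 0.00584), a call that ended without day 16 replicate 2 (adjusted p = 0.0688).

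GPX2, the remaining gene of the family and a known target of Yap1, gave low signals. They were 17.7, 18.4 and 15.5 in the chemostats, 14.7 and 21.8 on day 2, 32.3 and 23.9 on day 9, 18.5 and 30.5 on day 16, and 22.4 and 23.9 on day 22. GPX2 rose on day 9 (0.70 ± 0.24, adjusted p = 0.0446), a call that ended after quantile normalization (adjusted p = 0.169) and without any 1 of the 3 chemostats (adjusted p from 0.0797 to 0.107), day 9 replicate 1 (0.275) or either day 22 array (0.0693). On day 22 the value relative to all genes was 0.20 ± 0.24 (adjusted p = 0.177), and after quantile normalization the fitted difference was −0.09. The 3 GPX genes are copies of each other, and whether their probe sets separate them was not tested.

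The peroxiredoxins went in different directions. PRX1 encodes the peroxiredoxin of the mitochondria. Its intensity was 846, 685 and 984 in the chemostats, 1427 and 1148 on day 2, 2060 and 1583 on day 9, 1788 and 1786 on day 16, and 1788 and 1830 on day 22. All retentostat arrays were above all chemostats, with group means of 1822, 1787 and 1809 from day 9 on. PRX1 was at a log2 difference of 0.63 ± 0.19 on day 2 (adjusted p = 0.132). It rose by 1.12 ± 0.19 on day 9 (adjusted p = 0.00155) and by 0.97 ± 0.19 and 0.89 ± 0.19 on days 16 and 22 relative to all genes (adjusted p = 0.00146 and 0.00119). As fitted, the changes on days 16 and 22 were 1.11 and 1.13.

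TSA2, which encodes the minor cytosolic peroxiredoxin, was the only one of the 10 genes that fell. It was at 543.5, 464 and 337 in the chemostats, 378 and 414 on day 2, 359 and 211 on day 9, 208 and 190.1 on day 16, and 163 and 146 on day 22. The arrays of days 16 and 22 were all below those of day 2 and the chemostats, and day 22 was below day 16. As fitted, TSA2 changed by −1.14 on day 16 and −1.51 on day 22. TSA2 fell by 1.28 ± 0.25 on day 16 and by 1.74 ± 0.25 on day 22 relative to all genes (adjusted p = 0.00465 and 0.000904), and the day 16 call ended without day 16 replicate 2 (adjusted p = 0.0501). On day 9 its value of −0.68 ± 0.25 missed the threshold (adjusted p = 0.0518), and it passed after quantile normalization (adjusted p = 0.0384) and without chemostat replicate 3 (0.0212) or day 9 replicate 1 (0.0184). Against day 2 it fell by 1.54 ± 0.27 on day 22 (adjusted p = 0.00808), but not without day 22 replicate 2 (adjusted p = 0.0851).

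TSA1 encodes the main cytosolic peroxiredoxin, which also acts as a chaperone, and it was bright on all arrays. The values were 3953, 3663 and 3452 in the chemostats, 3423 and 3789 on day 2, 3774 and 2783 on day 9, 3034 and 3591 on day 16, and 3190 and 3170 on day 22. The retentostat arrays overlapped with the chemostats except on day 22, where both lay just below. The fitted log2 difference on day 22 was −0.21 ± 0.17, with a 95% confidence interval from −0.59 to 0.16 (adjusted p = 0.34), and its sign turned after quantile normalization (0.04). TSA1 and TSA2 are close copies, and so their probe sets may share signal.

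**Figure D2:**
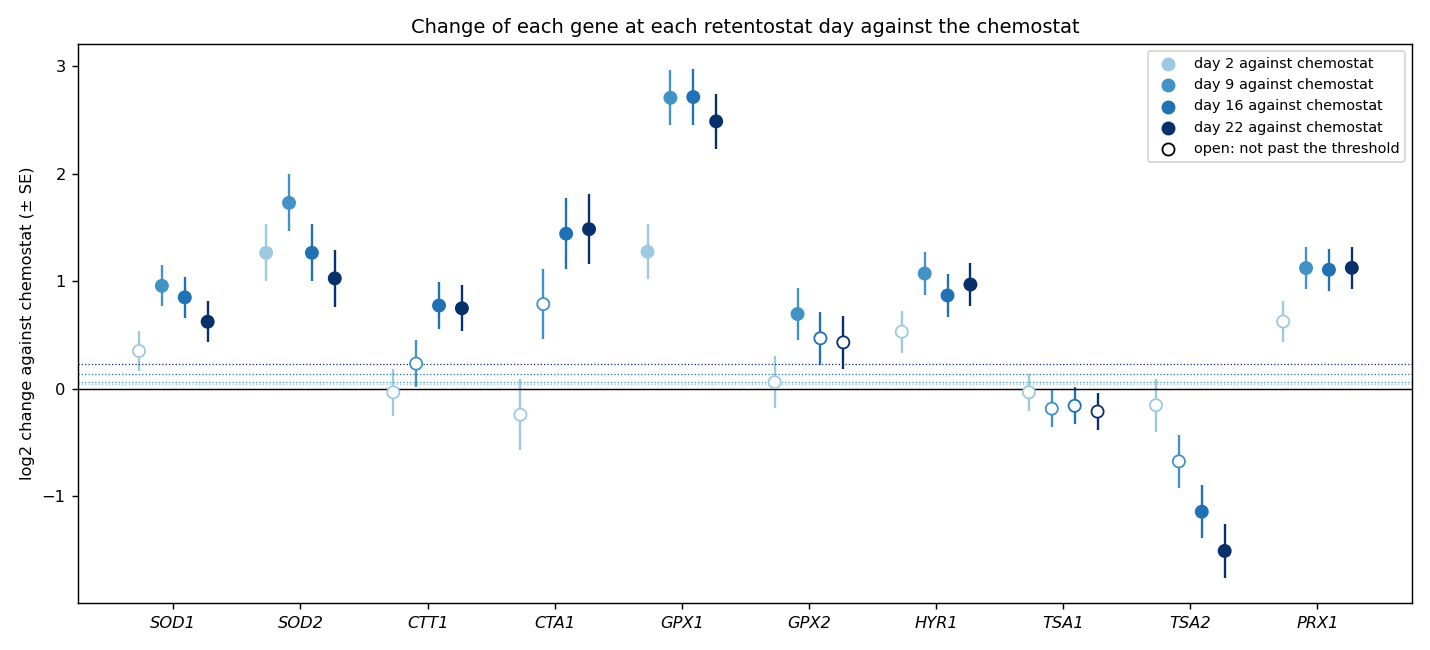
Log2 change as fitted, not relative to all genes, of the 10 genes on days 2, 9, 16 and 22 against the chemostat, with its SE; filled points passed the threshold and dotted lines are the median of all genes on that day. GPX1 is highest on days 9, 16 and 22, TSA2 is the only gene with filled points below 0, and on day 2 only SOD2 and GPX1 are filled.

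Set side by side, the number of genes called against the chemostat was 2 of 10 on day 2, 6 on day 9, 8 on day 16 and 8 on day 22. All were rises except TSA2 at the last 2 days. Of all genes 1.47% were called on day 2 (0.983% higher, 0.482% lower), 37.9% on day 9 (22.4% higher, 15.5% lower), 39.4% on day 16 (26.6% higher, 12.8% lower) and 42.6% on day 22 (31.8% higher, 10.8% lower). The arrays of a day lay wholly above or below the chemostats for 5 of the 10 genes on day 2, 7 on day 9, 9 on day 16 and 10 on day 22. Over all genes the corresponding shares were 38.4%, 60.5%, 66% and 67.7%. The same 3 chemostats serve in all 4 comparisons. The median log2 change of the 10 genes was 0.21 on day 2 and 0.87 on day 9, against 0.04 and 0.06 for all genes. Relative to all genes it was 0.72 on day 16 and 0.63 on day 22. As fitted it was 0.86 on each of these later days. For day 22 against day 2, 4 of the 10 were called, CTT1, CTA1 and GPX1 higher and TSA2 lower, against 16.6% of all genes (13.4% higher, 3.2% lower). The 2 days did not overlap for 9 of the 10 genes and for 60.9% of all genes. For GPX1 the rise was 1.03 ± 0.28 relative to all genes (adjusted p = 0.0157) and for CTT1 0.60 ± 0.24 (adjusted p = 0.045).

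Some of these counts depended on single arrays or on the scaling. The 2 calls on day 2 were both lost after either other scaling, with only the arrays compared, and without chemostat replicate 1 or 2, either day 2 array, either day 16 array or either day 22 array; 1 was lost without chemostat replicate 3. The count on day 16 was 4 without day 16 replicate 2, and that on day 22 was 5 without day 22 replicate 2 and 5 with 1 median for all arrays. Leaving out day 2 replicate 1 or day 22 replicate 1 left 1 call for day 22 against day 2, leaving out day 22 replicate 2 left 0, and 1 median for all arrays left 2. With the actin ratio as a covariate, 1 gene was called on day 22, GPX1 (fitted change 1.99, adjusted p = 0.016), and 9.7% of all genes. The ratio was 0.571 and 0.341 on day 22 and 0.766 to 0.796 in the chemostats. This fit therefore cannot fully separate the ratio from the day.

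On day 9 the 2 retentostats differed more than on the other days. Day 9 replicate 1 was above replicate 2 for 9 of the 10 genes, all but CTA1, whereas 40.8% of all genes were higher on that array. The median gap between the 2 arrays was 0.44 on the log2 scale for the 10 genes and 0.30 for all genes. On the other 3 days the gap for the 10 genes was between 0.074 and 0.20. Without day 9 replicate 1, SOD1, SOD2, GPX1, HYR1 and PRX1 were still called on day 9, with fitted changes of 0.73, 1.34, 2.26, 0.85 and 0.93.

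Whether related genes changed unequally was tested on their ratio within each array, which removes a linear scaling between arrays. Each ratio was compared over the 5 groups with an exact permutation test of the F statistic (one-sided, 17325 distinct assignments of the arrays, smallest possible p 5.77e-05), adjusted over 5 pairs. The log2 ratio of TSA2 to TSA1 averaged −3.07 ± 0.26 in the chemostats (SD, n = 3), −3.19 ± 0.01 on day 2, −3.56 ± 0.23 on day 9, −4.05 ± 0.27 on day 16 and −4.36 ± 0.11 on day 22 (SD, n = 2 each). It changed by −1.30 between day 22 and the chemostats (exact p = 0.00323, adjusted p = 0.00808). GPX1 over GPX2 was higher by 2.06 on day 22 than in the chemostats (exact p = 0.000808, adjusted p = 0.00404), and GPX2 was close to the floor. These 2 ratios largely restate the changes of TSA2 and GPX1 given above. They come from the same arrays and are not separate support for those changes. The permutation test exchanges arrays of the same cultures. With arrays permuted only within replicate numbers the adjusted exact p was 0.0833 for GPX1 over GPX2 and 0.0417 for TSA2 over TSA1. Few distinct permutations exist under that limit, and 0.0417 is the lowest adjusted p that 1 pair alone can reach.

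The other 3 pairs did not pass. SOD2 over SOD1 averaged −2.39 ± 0.27 in the chemostats (SD, n = 3), and −1.48 ± 0.36, −1.62 ± 0.23, −1.97 ± 0.10 and −1.99 ± 0.30 on days 2, 9, 16 and 22 (SD, n = 2 each). Its exact p of 0.0454 became 0.0756 after adjustment, and without chemostat replicate 3 the adjusted value was 0.0489. CTT1 over CTA1 differed by −0.74 between day 22 and the chemostats (exact permutation p = 0.136, adjusted p = 0.171), and chemostat replicate 3, at −2.06, lay among the late arrays. Without that array its adjusted p was 0.0489. GPX2 over HYR1 differed by −0.54 (exact permutation p = 0.332), and after quantile normalization by −1.11, which passed (adjusted exact p = 0.0294).

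**Figure D3:**
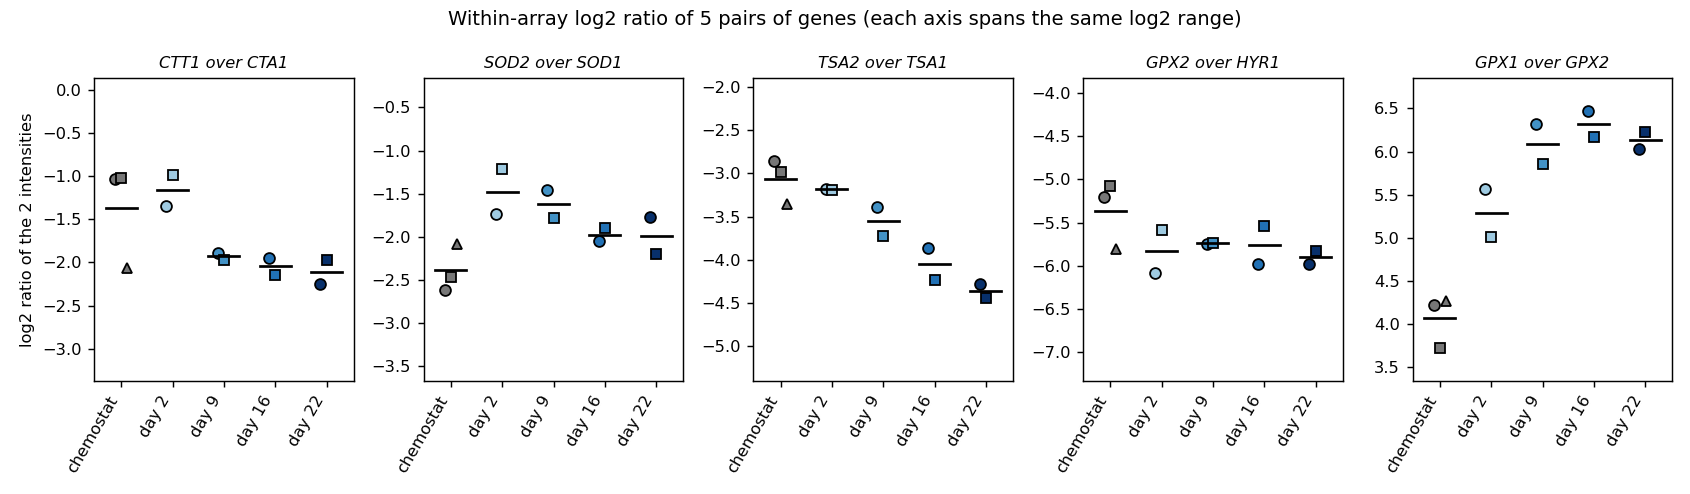
Log2 ratio of the intensities of 5 pairs of genes within each array, by group; points are arrays, shapes replicate numbers as in the plot of intensities, bars group means, and each axis spans the same log2 range. TSA2 over TSA1 averages −4.36 on day 22 against −3.07 in the chemostats, and GPX1 over GPX2 is at 5.86 or more on every array from day 9 on.

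For the 8 genes called over the 5 groups, the genes most like each were taken as the 3 named protein-coding genes with the highest Pearson correlation of log2 intensity over the 11 arrays, a description over arrays that share cultures and groups. For GPX1 they were FMP52 (r = 0.99), FMP16 (0.99) and YNK1 (0.99), and for PRX1 OM14 (0.99), PBN1 (0.99) and UIP4 (0.99). HYR1 was closest to QCR9, a subunit of the respiratory bc1 complex (0.99), CLC1 (0.98) and CIN5 (0.98). SOD2 was closest to the malate dehydrogenase gene MDH2 (0.97), the glutathione transferase gene GTT1 (0.97) and PLN1 (0.97), and SOD1 to SPS19 (0.97), NCE102 (0.97) and TFS1 (0.97). CTA1 was closest to ADH2, the glucose-repressed alcohol dehydrogenase (0.98), EMP24 (0.96) and FUN26 (0.96), and CTT1 to IRC10 (0.97), USB1 (0.96) and AVT5 (0.96). For TSA2 they were SSO2 (0.96), the nicotinic acid permease gene TNA1 (0.96) and DAN1 (0.95), a cell wall mannoprotein gene of cells without oxygen.

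A list of electron donors, other partners and related redox enzymes, called partners here, was compared between day 22 and the chemostats. Its 28 genes include thioredoxins, glutaredoxins, their reductases, metal chaperones, other peroxidases, glutathione transferases and methionine sulfoxide reductases. Of the 28, 14 rose and 2 fell, against 31.8% of all genes higher and 10.8% lower. Quantile normalization gave 11 rises and 4 falls, and 1 median for all arrays gave 8 and 4. In either direction these scalings called 39.8% and 37.3% of all genes on day 22. With the actin ratio as a covariate 1 of the 28 was called, against 9.7% of all genes. The median relative to all genes was 0.28. The largest rise was that of MXR2, the mitochondrial methionine sulfoxide reductase, at 678 ± 116 on day 22 (SD, n = 2) against 245 ± 13.9 in the chemostats (SD, n = 3; 1.23 ± 0.18 relative to all genes, adjusted p = 0.000165). TRR2, the mitochondrial thioredoxin reductase, rose by 0.82 ± 0.22 (adjusted p = 0.00392) and the glutaredoxin gene GRX8 by 0.76 ± 0.21 (adjusted p = 0.00375).

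The 2 partners that fell were CCS1 and GSH2. CCS1, the chaperone that loads copper into Sod1, was at 400.6 ± 13.5 on day 22 (SD, n = 2) against 663 ± 107 in the chemostats (SD, n = 3), and fell by 0.95 ± 0.20 relative to all genes (adjusted p = 0.0156), while SOD1 itself rose. GSH2, glutathione synthetase, fell by 0.85 ± 0.16 (adjusted p = 0.0104). The gene for sulfiredoxin, SRX1, which repairs overoxidised Tsa1, was at 108 on day 22 and 165 in the chemostats and did not pass (adjusted p = 0.162). The cytosolic thioredoxin reductase gene TRR1 was at 977 on day 22 and 950.1 in the chemostats, with an adjusted p of 0.906. Leaving out day 22 replicate 2 lowered the count for the list to 8.

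Of 18 transcription factors and sensors linked to the 10 genes, 7 rose and 1 fell on day 22 against the chemostats, with 31.8% of all genes higher and 10.8% lower. Quantile normalization gave 5 and 2, 1 median 4 and 2, and the actin ratio as a covariate 1 and 0. These fits called 39.8%, 37.3% and 9.7% of all genes in either direction. CIN5, a relative of Yap1, was at 289 ± 4.88 on day 22 (SD, n = 2) against 72.1 ± 33.2 in the chemostats (SD, n = 3) and rose by 1.87 ± 0.38 relative to all genes (adjusted p = 0.00153). CUP2, the copper-sensing activator of SOD1 and the metallothioneins, rose by 1.02 ± 0.15 (adjusted p = 0.000165), and MAC1, the activator of copper uptake genes, by 0.73 ± 0.19 (adjusted p = 0.00247). HAP1, the haem-responsive activator that regulates both CTT1 and CYC1, fell by 1.33 ± 0.23 (adjusted p = 0.00308), to 994 ± 59.1 on day 22 (SD, n = 2) against 2134 ± 102 in the chemostats (SD, n = 3). Without day 22 replicate 2 the count for this list was 4.

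Genes listed for NADPH supply were called in both directions. The list also takes in genes of the pentose phosphate pathway that do not themselves make NADPH, such as TKL1 and TKL2. Of 17 genes 3 rose and 4 fell on day 22, with 31.8% of all genes higher and 10.8% lower. Quantile normalization gave 3 and 5, 1 median 2 and 6, and the actin ratio as a covariate 2 and 1. Of all genes 39.8%, 37.3% and 9.7% were called in these fits, in either direction. NQM1, a relative of the transaldolase TAL1, rose by 1.80 ± 0.27 relative to all genes (adjusted p = 0.000273) and TKL2, the minor transketolase, by 1.33 ± 0.29 (adjusted p = 0.00184). TKL1, the major transketolase, fell by 1.36 ± 0.29 (adjusted p = 0.0104), and SOL3, a 6-phosphogluconolactonase, by 1.23 ± 0.21 (adjusted p = 0.00358). ALD6, an aldehyde dehydrogenase of the cytosol, fell by 1.81 ± 0.21 (adjusted p = 0.000283). The pairs TKL1 and TKL2, and TAL1 and NQM1, are close copies, and their probe sets may share signal. ZWF1, the first enzyme of the pentose phosphate pathway, was at 1214 on day 22 and 2271 in the chemostats, and did not pass (adjusted p = 0.0521). The other rise was that of IDP1, the mitochondrial isocitrate dehydrogenase that makes NADPH, at 1148 on day 22 and 800.9 in the chemostats. Its adjusted p of 0.0304 (limma) is that of the change as fitted. Relative to all genes the change was 0.30 ± 0.17, which was not tested. Without day 22 replicate 2 this count was 4.

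**Figure D4:**
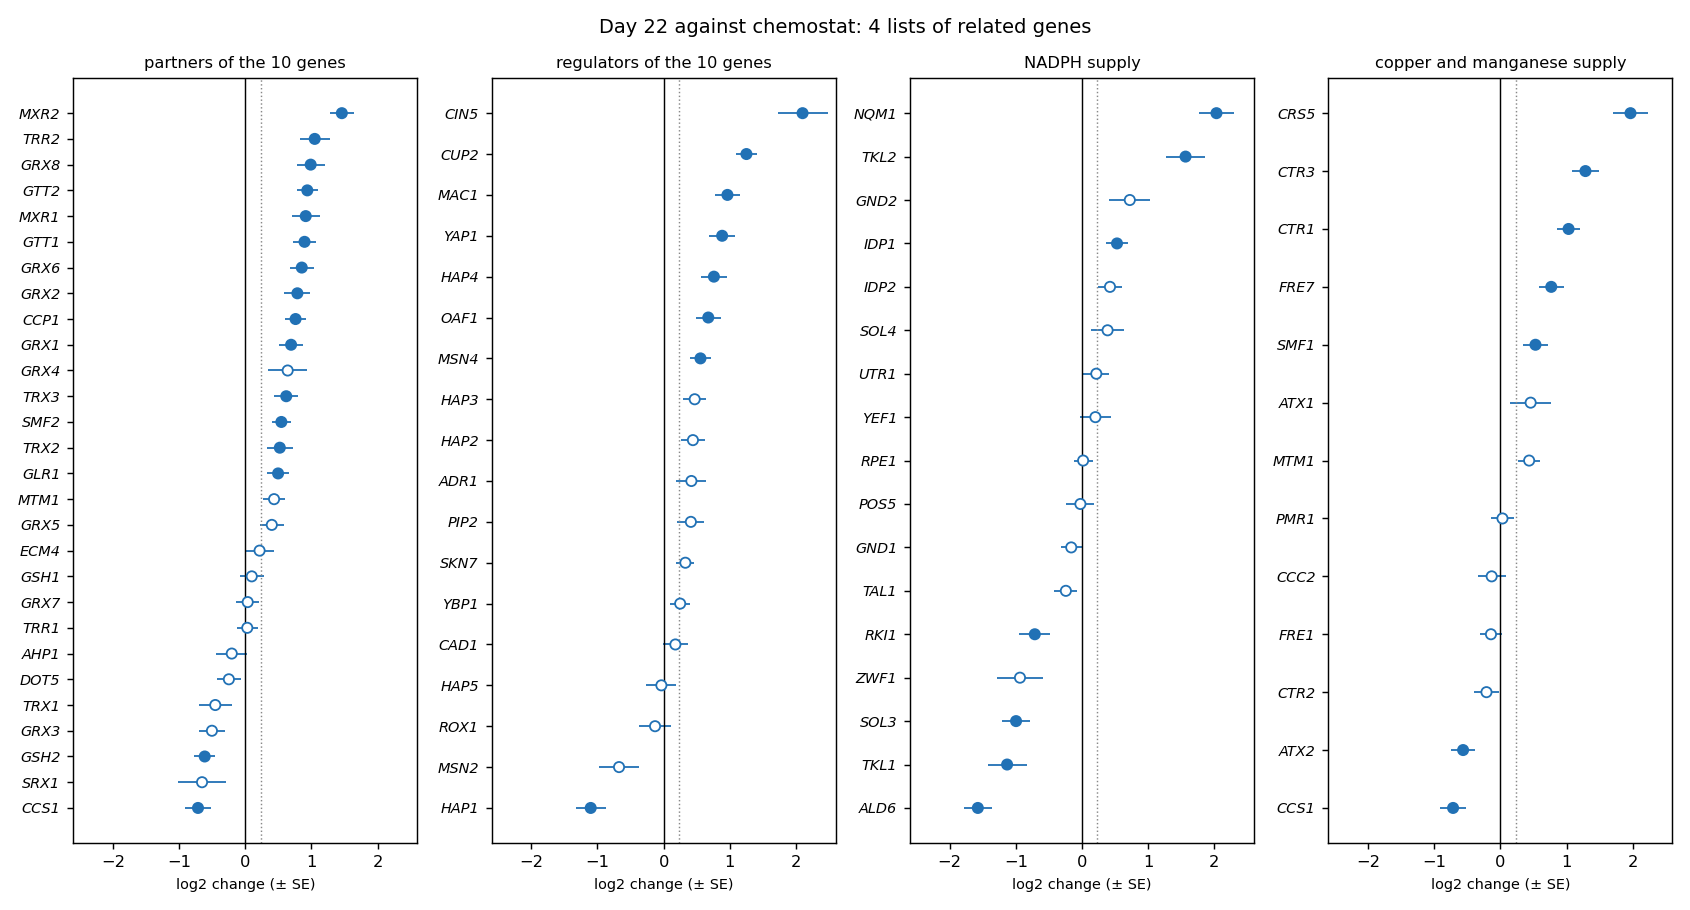
Log2 change as fitted, with its SE, of day 22 against the chemostat for the genes of 4 lists; filled points passed the threshold, the solid line is 0 and the dotted line the median of all genes. MXR2 leads the partners and CIN5 the regulators, CCS1 and HAP1 are lowest in theirs, and the NADPH list has called genes on both sides of 0.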

How the data were processed

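RNA of 11 culture samples was measured on 1-colour yeast arrays. The deposited values are linear intensities, 1 for each probe set, made by the authors with GCOS 1.2, per the submitters' processing notes, and the sources used here do not give its settings. Trimmed by 2% at each end, the array means differed by 0.0218% at most, and this scaling was kept. Of 9335 probe sets, 60 were controls, 6504 had 1 gene symbol, 328 several and 2443 none. Values under 12 were set to 12, and log2 was taken. Where a gene had several probe sets, that of highest mean stood for it, and 59 genes never above the floor were left out.

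limma 3.58.1 (R 4.3.3) was fitted to all 5597 genes with 1 mean a group. Tests were two-sided, each comparison had its own Benjamini-Hochberg adjustment, and 0.05 was the threshold. The fit was tested on simulated data. SE is that of a log2 change. "Rose" and "fell" are used of genes that passed. The members, lists, pairs and tests were chosen with earlier results of these data known. Genes of the lists were named by a rule: up to 3 rises and 3 falls that passed and whose arrays did not overlap. SRX1, TRR1, ZWF1 and MTM1 fall outside it and were chosen after their values were seen. Alternatives were other scalings, floors and filters, each array left out, only the groups compared, the replicate number as a block and the actin ratio. Those for the lists were added after the data were seen.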

Additional observations from a re-analysis of the deposited data

How the results depend on the processing

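The day 2 count of 2 of the 10 genes was 0 after quantile normalization, with 1 median for all arrays, with no floor, with no filter, with the actin ratio as a covariate, without the 2 arrays of lowest actin ratio and with only the groups compared, 1 with a floor of 50, and 0 to 2 with 1 array left out. Of all genes, 1.47% were called on day 2 in the main fit. The share was 1.04% after quantile normalization, 0.965% with 1 median, 0.893% with the actin covariate and 0% with only the groups compared. With the replicate number as a block the day 2 count of the 10 genes was 1. Whether a number marks 1 culture is not in the labels: deviations of same-numbered arrays correlated at 0.077 to 0.40 between retentostat days and at −0.182 to 0.275 with the chemostats. The block ended the call of CTT1 for day 22 against day 2 (adjusted p = 0.0583), of GPX1 on day 2 (0.0567) and of GPX2 on day 9 (0.0924), and CTA1 and TSA2 then passed on day 9 (0.00248 and 0.0138). The block also ended the call of GPX1 over GPX2 (2.06, adjusted p = 0.0833). With the actin ratio as a covariate the counts were 1 on day 22 (8 otherwise) and 0 for day 22 against day 2 (4). They were 5 over the 5 groups (8) and 0 over the 4 retentostat days (3). Of all genes this fit called 9.7% on day 22, 2.64% for day 22 against day 2, 21.9% over the 5 groups and 3.39% over the 4 days. In the lists, on day 22, it called 1 of the partners (16), 1 of the regulators (8), 3 for NADPH (7) and 0 for copper and manganese (7). Without the 2 arrays of lowest actin ratio they were 2 on day 16, 4 on day 22, 0 for day 22 against day 2, 3 over the 5 groups and 0 over the 4 days, and 6, 2, 3 and 4 in the lists. With 1 median for all arrays the counts of the 10 genes were 5 on day 22 and 2 for day 22 against day 2. Of all genes 37.3% and 11.6% were called. The 4-day count was 1 with no floor, with no filter and with only the 4 retentostat days, against 7.5%, 9.58% and 5.41% of all genes. With only the day 22 and chemostat arrays 13 regulators were called on day 22, against 47.8% of all genes. With 1 array left out, counts ranged from 5 to 7 on day 9, 4 to 8 on day 16, 5 to 8 on day 22, 0 to 4 for day 22 against day 2, 7 to 8 over the 5 groups, 0 to 3 over the 4 days, and from 8 to 18, 4 to 10, 4 to 8 and 4 to 8 in the lists. A floor of 50 makes CTT1 and GPX2 constant, so the values it gave for CTT1 over CTA1 (−0.97) and GPX2 over HYR1 (−0.97) are those of the partner gene alone; SOD2 over SOD1 kept 0.40 and passed only by the adjustment over these pairs. GPX2 over HYR1 passed after quantile normalization (−1.11). The ratios that passed without chemostat replicate 3 were CTT1 over CTA1 (−1.08; −0.56 at the other end of the omissions) and SOD2 over SOD1 (0.55; omissions ran from 0.19 to 0.62). The causes were not tested. No value reversed past the threshold. Low signals limit CTT1 and GPX2, which lay near the floor.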

Other observations

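Genes of copper and manganese supply, the metals of the dismutases, were also compared between day 22 and the chemostats. Of 15 listed, 13 were tested, and 5 rose and 2 fell, with 31.8% of all genes higher and 10.8% lower. Quantile normalization gave 3 and 3, 1 median for all arrays 3 and 2, and the actin ratio as a covariate no call. These fits called 39.8%, 37.3% and 9.7% of all genes in either direction. CRS5, a copper-binding metallothionein, was at 4754 ± 435 on day 22 (SD, n = 2) against 1253 ± 398 in the chemostats (SD, n = 3), and rose by 1.73 ± 0.27 relative to all genes (limma, adjusted p = 0.000305). The copper transporter genes CTR3 and CTR1 rose by 1.05 ± 0.20 and 0.80 ± 0.18 (adjusted p = 0.000649 and 0.00125). CCS1 fell, as given above, and so did ATX2, a Golgi protein of manganese homeostasis, by 0.80 ± 0.18 (adjusted p = 0.027). The mitochondrial carrier MTM1, which Sod2 needs to obtain manganese, was at 520.2 on day 22 and 384 in the chemostats and did not pass (adjusted p = 0.0573). The count of 7 became 4 without chemostat replicate 1 or either day 22 array. The metallothionein genes CUP1-1 and CUP1-2 were not analysed here.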
